A study of Mus musculus with 4 samples.

Results

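Plasma cells were found among mouse bone marrow cells that had been sorted for stem and progenitor cells, and 144 of 15421 kept cells were of this kind. A cell was counted as a plasma cell where Igkc, Igha, Ighm, Ighg2b, Iglc1, Iglc2, Iglc3 and Jchain together gave at least 5% of its transcript counts and Jchain had at least 1. Cells were kept with at least 500 unique molecular identifiers (UMIs, 1 per captured transcript) and with no more than 20% of those from the mitochondrial genome. Since the cells were selected on immunoglobulin transcripts, the levels of those genes are a description of the choice and not a finding.

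The marrow came from C57BL/6 mice and was sorted as lineage-negative, Sca1-positive and cKit-positive (LSK), a gate meant for haematopoietic stem cells and multipotent progenitors. Each of 4 groups had 1 inDrop library, a droplet method with barcoded beads: untreated wild-type (WT) mice, WT mice given imatinib, untreated mice with chronic myeloid leukaemia (CML), and CML mice given imatinib. Imatinib, an inhibitor of the ABL and KIT kinases, was given by gavage at 400 mg/kg every other day, for 30 days by the protocol and for 4 weeks by another label. The labels used here give neither how the leukaemia was driven nor how many mice were pooled, and they do not give the sex of the mice. A group was thus a single library, so differences could not be held against replicates and were not tested. By name, 1135 cell barcodes were shared between the WT untreated and WT imatinib libraries (39.6% and 20.4% of their names), and 80 to 340 between the other pairs of libraries. The headers hold 1 name more than there are columns, so names were read at both possible positions. Of the 6 WT imatinib plasma cells, 3 shared a name with some WT untreated cell at one position and 0 at the other, and of the 43 CML untreated plasma cells 0 and 1 did. At neither position was the cell of that name a plasma cell of WT untreated. Each interval below is an exact 95% interval for counting error alone.

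Plasma cells are the end stage of the B lineage and secrete antibody. XBP1, IRF4 and BLIMP1 (Prdm1) run their programme, they shut off PAX5, and they expand the endoplasmic reticulum to fold and export immunoglobulin. Long-lived plasma cells settle in the bone marrow, where survival signals reach receptors such as BCMA (Tnfrsf17) and TACI (Tnfrsf13b). Sca1, the protein of Ly6a used in the sort, is known from stem cells and is also carried by plasma cells of the mouse.

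The WT untreated library held 95 plasma cells among 3033 kept cells, or 3.13% (interval 2.54 to 3.82%). The CML untreated library held 43 among 3032, or 1.42% (1.03 to 1.91%). The intervals of the untreated libraries do not overlap, but they cover counting error alone. With 1 library per group the difference was not tested. In the WT imatinib library 6 of 4189 kept cells were plasma cells, or 0.143% (0.0526 to 0.311%). The CML imatinib library had 0 of 5167, which allows a share of up to 0.0714%. The imatinib libraries were shallower, with medians of 1486 (WT) and 1192 (CML) UMIs per kept cell against 3636 (WT) and 5160.5 (CML) without drug, and the part of depth in these shares was not tested.

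The values that the choice used are given as a description. In the WT untreated library the lowest plasma cell had 20.4% of its UMIs in the 8 genes and the highest other cell 4.01%. In the CML untreated library the lowest 4 plasma cells were at 7.49, 13.03, 15.3 and 16.05%, and the highest other cell at 2.70%. The CML imatinib library had its highest cell at 4.42%, just under the threshold. Of the other kept cells, 40.5% in WT untreated and 35.0% in CML untreated had an Igkc UMI, while Mzb1 was found in 0.477% and 0.301% of them.

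The depth of the plasma cells differed between the libraries. The median was 5853 UMIs per plasma cell in WT untreated and 4646 in CML untreated, of which 2158 and 1849 lay outside the immunoglobulin genes. In sum, 220022 UMIs outside immunoglobulin genes were available in WT untreated, 133575 in CML untreated and 6092 in WT imatinib. Cells with under 50% of UMIs in the 8 genes weighed more in CML: 9 of 43 cells there held 43.4% of these UMIs, while 16 of 95 held 25.7% in WT. The cell with the most UMIs gave 8.58% of the total in CML and 3.02% in WT.

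**Figure D1:**
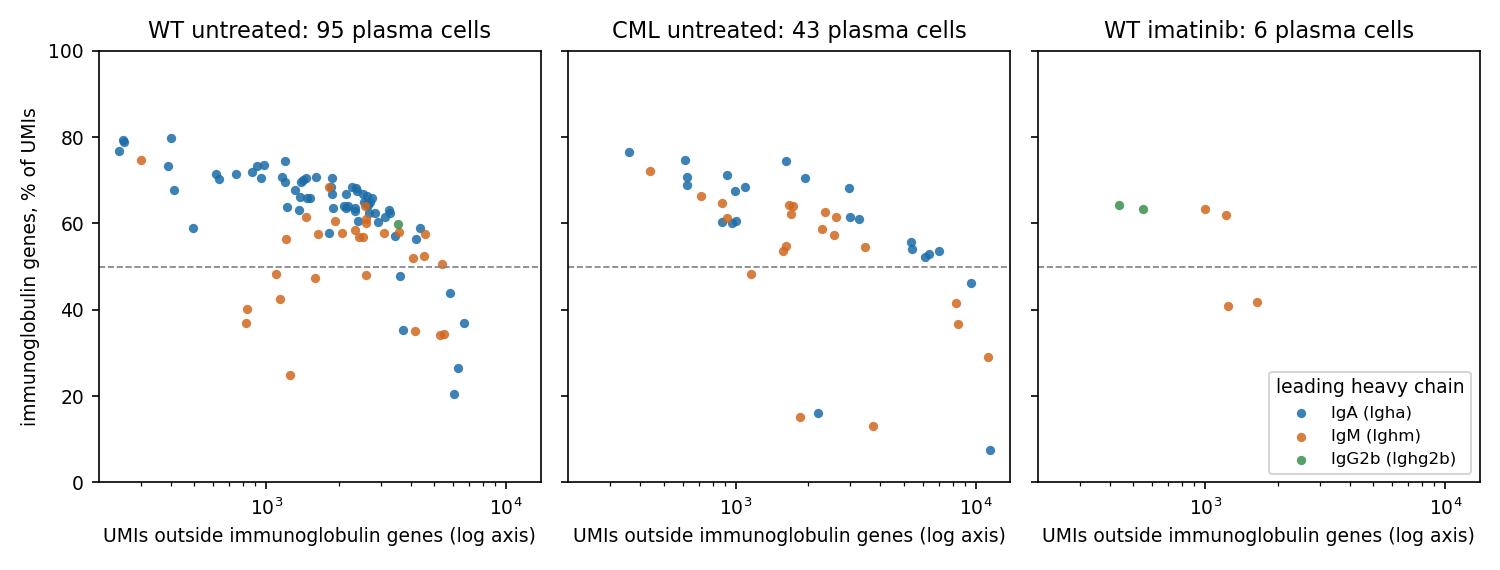
Each point is 1 plasma cell, with its UMIs outside immunoglobulin genes on the x axis (log axis) and the percentage of its UMIs in immunoglobulin genes on the y axis, coloured by its leading heavy chain. The dashed line marks 50%, and the CML untreated cells at the lower right (1 at 7.49%) carry many UMIs of other genes.

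Among markers of the cell type, Mzb1 and Xbp1 were in most of the selected cells, and Sdc1, Irf4 and Prdm1 in a minority. Mzb1, a chaperone of antibody assembly in the endoplasmic reticulum, had a UMI in 86.3% of WT untreated and 74.4% of CML untreated plasma cells. Sdc1, which encodes the plasma cell antigen CD138, had one in 45.3% and 27.9%. With each cell thinned to 500 UMIs outside immunoglobulin genes, Mzb1 was found in 65.5% and 56.1% and Sdc1 in 25.3% and 7.32%. Xbp1 was detected in 93.7% and 83.7%, Irf4 in 42.1% and 30.2%, and Prdm1 in 24.2% and 34.9%. The set of 8 plasma cell markers was Mzb1, Sdc1, Xbp1, Prdm1, Irf4, Tnfrsf17, Derl3 and Ly6a, the last being the gene of the sort marker Sca1. All 8 had UMIs in both libraries. At least 2 of them were held by 97.9% of WT and 86.0% of CML plasma cells, against 7.22% and 10.5% of the other kept cells. Thinned in the same way, which left out 8 WT and 2 CML cells as too shallow, the shares were 87.4% of 87 and 70.7% of 41 cells.

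B cell genes were present in part. Cd79a, a signalling chain of the B cell receptor, had a UMI in 68.4% of WT and 65.1% of CML plasma cells. Ms4a1, which encodes CD20, was found in 4.21% and 2.33%. Pax5, the factor that plasma cells shut off, and Cd22 had 0 UMIs in the plasma cells of both libraries. Pax5 UMIs were in 0.272% and 0.870% of the other kept cells. A count of 0 in 95 and 43 plasma cells allows shares of up to 3.81% and 8.22%, so no difference in Pax5 was detectable.

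The gate's other marker was rare in these cells. Kit, which encodes cKit, had a UMI in 7.37% of WT and 9.30% of CML plasma cells, against 35.4% and 41.0% of the other kept cells. Ly6a was found in 86.3% and 81.4% of plasma cells, against 19.6% and 22.0% of the others. After thinning to 500 UMIs Kit was in 1.15% and 0% of plasma cells and in 5.85% and 7.26% of the others, and Ly6a in 74.7% and 56.1% against 5.14% and 5.15%. The 5 stem and progenitor markers summed to 277 CPM in WT and 165 CPM in CML plasma cells, against 929 and 822 CPM in the other cells. CPM here and below is counts per 1000000 UMIs outside immunoglobulin genes, summed over the cells of a library.

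Markers of other cell types had UMIs in some plasma cells. Granulocyte-monocyte markers summed to 836 CPM in WT and 651 CPM in CML, against 4394 and 3665 CPM in the other kept cells. S100a8 and S100a9 were at 0 in the plasma cells of both. A single cell gave 90.2% of the Elane UMIs in WT and 87.0% in CML. T cell markers summed to 36.4 CPM in WT and 127 CPM in CML, against 125 and 113 CPM in the other kept cells. Cd3e and Trbc1 were at 0 in the plasma cells of both. A pair of T cell markers was held by 0 of 95 WT and 2 of 43 CML plasma cells. Leaving aside B cell markers, 79 of 95 WT and 37 of 43 CML plasma cells lacked a pair of markers of any other type. With B cell markers counted too, 42 and 21 did, which would be 1.38% and 0.693% of the kept cells. No doublet caller was run, and the part of mixed droplets in the results was not tested.

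Each plasma cell was led by 1 heavy-chain constant gene, and most made IgA. Igha led in 65 of 95 WT untreated cells (68.4%, interval 58.1 to 77.6%) and in 23 of 43 CML untreated cells (53.5%, 37.7 to 68.8%). Ighm led in 29 (30.5%, 21.5 to 40.8%) and 20 (46.5%, 31.2 to 62.3%). Ighg2b led in 1 WT cell and in 0 CML cells, which allows up to 8.22%. The share of IgA was lower in CML, but the intervals overlap. The median cell had 100% of its heavy-chain constant UMIs in the leading gene in both classes, and 1 WT cell was mixed, at 62.8%.

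Light chains were nearly all kappa. Igkc led over the lambda genes in 92 of 95 WT and 43 of 43 CML cells. The 3 lambda cells of WT were all led by Igha and by Iglc1, and the highest of them held 33.0% of the library's Iglc1 UMIs. The absence of lambda-led cells in CML allows a share of up to 8.22%, so no difference was detectable at this depth.

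Jchain, the chain that joins IgA and IgM into polymers, took 13.9% of immunoglobulin UMIs in IgA-led and 7.93% in IgM-led cells of WT. The values in CML were 15.1% and 7.71%. Cells varied widely within a class, from 0.281% to 26.3% among the WT IgA-led and from 0.705% to 13.6% among the WT IgM-led cells. Variable-region genes were hardly counted: the largest in either library were Ighv1-47 with 17 UMIs from 1 WT cell and Iglv1 with 17 UMIs in WT and 22 in CML. Clones were not analysed here. Igha lies on chromosome 12 at 113254830 to 113260236 and Ighm at 113418558 to 113422730 on the same chromosome, both on the minus strand (GRCm38, GENCODE vM21).

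**Figure D2:**
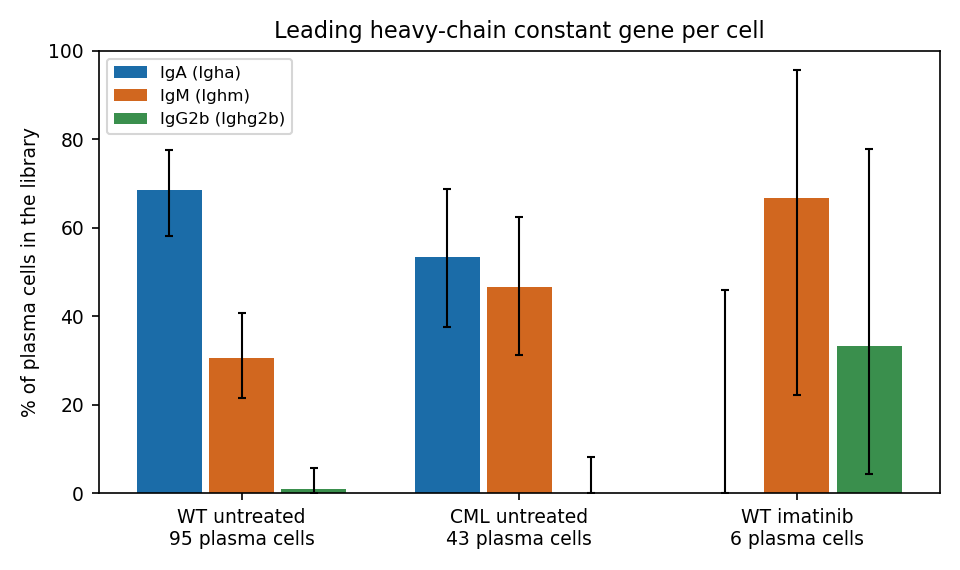
Bars give the percentage of a library's plasma cells led by Igha, Ighm or Ighg2b, with exact 95% intervals for counting error. IgA-led cells are 68.4% in WT untreated and 53.5% in CML untreated, and none of the 6 cells in WT imatinib.

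The 15 genes ranked as leading the plasma cells over the other kept cells of the WT untreated library are of mixed function. Among them were Pou2af1 (a B cell co-activator, 2395 CPM), Prg2 (eosinophil major basic protein, 1941 CPM), Tff1 (a secreted trefoil peptide, 691 CPM), Chmp4c (a membrane scission subunit, 1409 CPM) and Cd79a (1059 CPM), beside Mzb1 and Ly6a. Derl3, which exports misfolded proteins from the endoplasmic reticulum, was 390-fold over the other cells in WT and 256-fold in CML. Ly6a was at 81.9-fold and 39.0-fold, and Txndc5, a disulphide isomerase, at 68.8-fold and 34.1-fold. Prg2 was 3061-fold over the other cells in WT and 24.1-fold in CML, where the other kept cells had a log2 ratio of 6.18 over WT while plasma cells had -0.81 (interval -1.09 to -0.54).

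Between the untreated libraries, plasma cells of CML mice had more Hspa1b and Xist and less Ly6a, Tnfrsf13b, Sdc1 and Ccr10, and more Slpi in the IgM-led cells but less in the IgA-led. Of 568 genes that could be tested, 24 (4.23%) were 2-fold or more higher in CML and 41 (7.22%) lower by as much. The library with the higher level had to reach 100 CPM and 50 UMIs for a gene, which is said below to have risen or fallen where it also differed by 2-fold. The floor of 50 UMIs is 227 CPM in WT but 374 CPM in CML, so a gene between these levels could be called lower but not higher. With the CML level as the floor of both libraries, chosen after seeing the data, 409 genes could be tested, and 24 were higher and 11 lower. Sdc1, Ccr10 and the other genes below whose higher level is under 374 CPM are not among those 11. The median log2 ratio of CML over WT was -0.19 over the 568 genes. The split turned with the scaling: TMM factors moved every ratio by -0.20 and gave 18 higher and 66 lower, a total that includes immunoglobulin UMIs gave 40 and 16, and centring on the median gave 35 and 25.

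**Figure D3:**
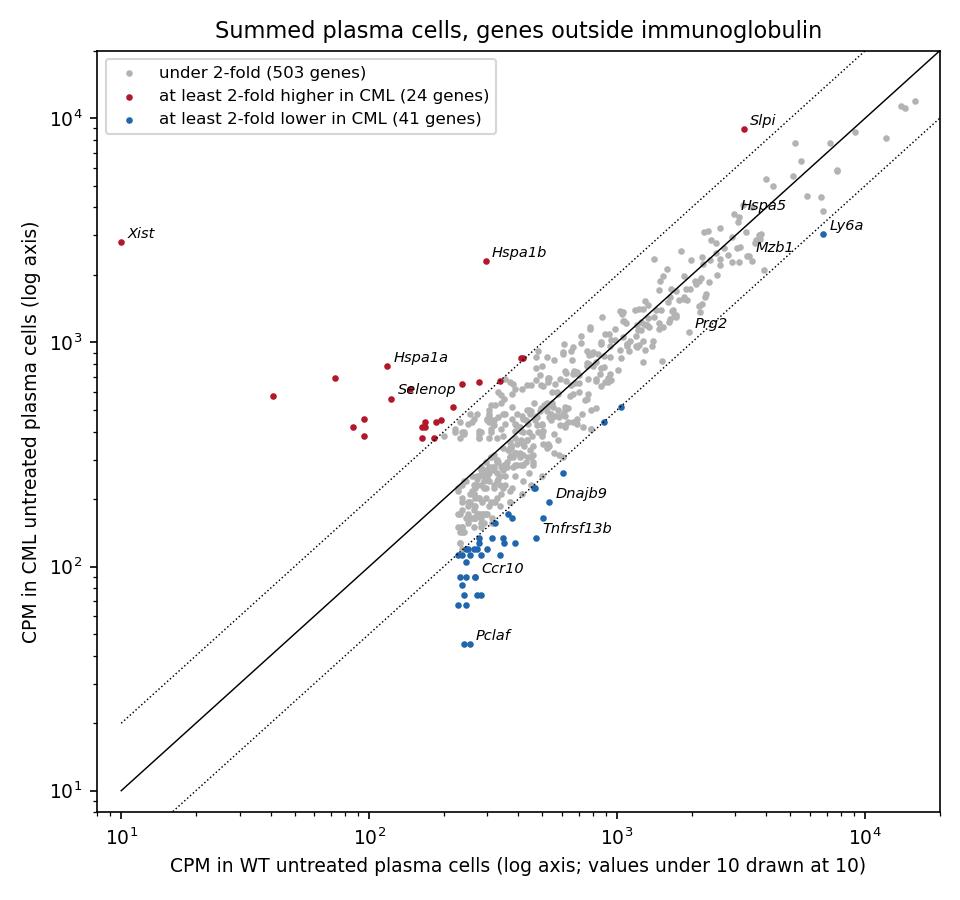
Each point is 1 of 568 genes, with its CPM in the summed WT untreated plasma cells on the x axis and in the CML untreated plasma cells on the y axis (both log axes). The solid line marks equal levels and the dotted lines 2-fold; Xist, Hspa1b and Slpi lie above the band and Ly6a, Tnfrsf13b and Ccr10 below it.

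Among surface proteins, Ly6a fell. It was at 6763 CPM (1488 UMIs) in WT and 3032 CPM (405 UMIs) in CML, a log2 ratio of -1.16 (interval -1.32 to -0.998), while in the other kept cells it was at 82.6 and 77.8 CPM, a ratio of -0.09. Per cell the median was 4258 CPM in WT (quartiles 2359 and 9576, highest 29070) and 2793 CPM in CML (quartiles 591 and 4819, highest 8020), so the cells of both libraries overlapped. Among cells with at least 50% immunoglobulin the ratio was -1.22. Under the total with immunoglobulin UMIs and other alternatives it ranged from -1.36 to -0.92 and met the floors and 2-fold in 13 of 16. Ly6a lies on chromosome 15 at 74994877 to 74998031 (minus strand).

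Of the receptors for survival and homing signals, Tnfrsf13b and Ccr10 fell. Tnfrsf13b, the receptor TACI for BAFF and APRIL, was at 473 CPM (104 UMIs in 46 cells) in WT and 135 CPM (18 UMIs in 10 cells) in CML, a log2 ratio of -1.81 (-2.62 to -1.08). Tnfrsf17, which encodes BCMA, was at 232 and 127 CPM, a ratio of -0.86 (-1.75 to -0.05) that did not reach 2-fold. Ccr10, the chemokine receptor that guides IgA plasma cells, was at 268 CPM (59 UMIs in 36 cells) and 89.8 CPM (12 UMIs in 7 cells), a ratio of -1.58 (-2.61 to -0.67). Of the 7 homing and adhesion genes tested, 1 fell and 0 rose, beside 7.22% and 4.23% of all genes, with a median of -0.26. Klf2, a transcription factor of lymphocyte migration, was at a ratio of 0.86 and Cd47 at 0.45. Cxcr4, which holds plasma cells in the marrow, had only 7 and 11 UMIs and was not tested. Of the 4 survival genes tested, Tnfrsf13b alone fell, while Mcl1, a survival factor of plasma cells, was at 1295 and 1535 CPM and Pim1, a survival kinase, at 2904 and 2950 CPM.

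Of 15 plasma cell identity genes tested, 5 fell and 0 rose, beside 7.22% and 4.23% of all genes. Their median log2 ratio was -0.44 beside -0.19 over all genes. The 5 were Tnfrsf13b, Sdc1, Ly6a, Ly6c2 and St6gal1. Sdc1 was at 350 CPM (77 UMIs) and 127 CPM (17 UMIs), a ratio of -1.46 (-2.31 to -0.69). St6gal1, the sialyltransferase of antibody glycans, was at 886 and 442 CPM, 2.01-fold lower in CML (log2 interval -1.45 to -0.58). It met the floors and 2-fold in only 6 of 16 alternatives, with a log2 range of -1.51 to -0.35. The core factors moved less: Xbp1 was at 3768 and 2905 CPM (ratio -0.38) and Mzb1 at 3409 and 2418 CPM (ratio -0.50). Among cells with at least 50% immunoglobulin these came to -0.16 for Xbp1 and -0.18 for Mzb1. In the 9 CML cells under 50% Mzb1 was at 1001 CPM and Xbp1 at 1295 CPM, against 3503 and 4138 CPM in the other 34.

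Transcripts of the secretory pathway were nearly level. Of 26 secretory pathway genes tested, 1 fell and 0 rose, beside 7.22% and 4.23% of all genes. Their median was -0.27, beside -0.19 over all genes and -0.03 for the same genes in the other kept cells. The 1 was Spcs1, a signal peptidase subunit, at 1041 and 517 CPM (ratio -1.01, -1.42 to -0.62). The larger signal peptidase gene Sec11c was at 2136 and 1460 CPM and Spcs2 at 1482 and 1714 CPM.

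Chaperones and folding enzymes of the endoplasmic reticulum were also close to level. Of 28 tested, 2 fell and 0 rose, beside 7.22% and 4.23% of all genes. The median was -0.09, against 0.26 in the other kept cells. Dnajb9, a co-chaperone that restrains the stress sensor IRE1, was at 532 CPM (117 UMIs) and 195 CPM (26 UMIs), a ratio of -1.45 (-2.12 to -0.83), and -0.92 among cells with at least 50% immunoglobulin. Cnpy2 was at 245 and 120 CPM. Hspa5 (BiP), the main chaperone of the compartment, was at 2972 and 3728 CPM (ratio 0.33, 0.16 to 0.50), and Hsp90b1 (GRP94) at 3495 and 4013 CPM (0.20, 0.04 to 0.36).

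The promoters of this group carry a known letter pattern, shown here because it marks genes that answer stress of the endoplasmic reticulum. The pattern is CCAAT, 9 bases of any kind, and CCACG, searched on both strands in the 250 bases before each RefSeq start (GRCm38.p6). It was found in 33 of 27025 promoters (0.122%) and in 9 of the 32 promoters matched to the chaperone list (28.1%). The 10 sites are given 5′ to 3′ on the strand that reads the pattern, with CCAAT, the 9 bases and CCACG in capitals and 5 bases on each side:
Calr, chr8:84847070-84847098, plus strand: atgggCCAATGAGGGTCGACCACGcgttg
Canx, chr11:50325795-50325823, minus strand: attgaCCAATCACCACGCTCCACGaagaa
Creld2, chr15:88819515-88819543, minus strand: gtggaCCAATTGAGGCTCGCCACGagaag
Derl3, chr10:75893237-75893265, minus strand: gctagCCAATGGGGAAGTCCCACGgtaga
Dnajc3, chr14:118937822-118937850, plus strand: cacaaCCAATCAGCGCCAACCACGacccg
Hsp90b1 (site 1), chr10:86705633-86705661, minus strand: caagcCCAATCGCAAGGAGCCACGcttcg
Hsp90b1 (site 2), chr10:86705528-86705556, plus strand: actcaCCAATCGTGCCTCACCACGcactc
Hspa5, chr2:34772020-34772048, plus strand: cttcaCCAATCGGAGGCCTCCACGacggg
Pdia6, chr12:17266486-17266514, plus strand: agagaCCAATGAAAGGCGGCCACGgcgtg
Syvn1, chr19:6046527-6046555, plus strand: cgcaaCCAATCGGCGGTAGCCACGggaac

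Levels of these 9 genes differed widely in how far they stood over the other kept cells. Derl3 was at 1114 and 913 CPM and Syvn1, a ubiquitin ligase of the same export route, at 823 CPM in WT (11.8-fold over the other cells) and 674 CPM in CML (7.78-fold). Creld2 was at 332 and 464 CPM, 12.4-fold and 12.2-fold. Calr was at 2345 and 1857 CPM, only 1.13-fold and 0.846-fold, and Canx at 236 and 180 CPM, 0.632-fold and 0.422-fold. The median over the 9 was 3.81-fold in WT and 4.66-fold in CML, beside 5.36-fold and 3.62-fold for the 23 chaperone genes without the letters. A match is a description of the letters and not a site of binding. The octamer ATGCAAAT, a pattern of B lineage promoters searched on both strands in the same windows, was found in 1.61% of all promoters and in none of the 32 of the chaperone list.

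Of 6 heat shock genes of the cytosol tested, Hspa1a, Hspa1b and Hsph1 rose and 0 fell, beside 4.23% and 7.22% of all genes. The median was 1.46 beside 1.19 in the other kept cells, where the same 3 were past 2-fold. Hsp90aa1 was at a ratio of 0.67 and Hsp90ab1 at 0.23, beside 0.46 and 0.15 in the other cells. Hspa1b, an inducible HSP70, was at 295 CPM (65 UMIs in 11 of 95 cells) in WT and 2313 CPM (309 UMIs in 22 of 43 cells) in CML. The log2 ratio was 2.97 (2.58 to 3.38), and 3.45 in the other kept cells, where 18.7% of WT and 78.0% of CML cells had a UMI (7.69% and 54.3% after thinning, against 9.20% and 36.6% of plasma cells). Hspa1a was at 118 and 786 CPM (2.73, 2.10 to 3.41) and Hsph1, a co-chaperone of HSP70, at 95.4 and 457 CPM (2.26, 1.52 to 3.05). Of the CML Hspa1b UMIs, 60.2% lay in the 9 cells under 50% immunoglobulin, and of the Hsph1 UMIs 93.4%. Among cells with at least 50% the ratio was 2.03 for Hspa1b and -0.59 for Hsph1, which turned direction in 3 of 16 alternatives.

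Hspa1a and Hspa1b are near-identical neighbours, so reads may be split between them. Their promoters share the stretch around a heat shock element, given 5′ to 3′ on the minus strand (RefSeq, GRCm38.p6) with GAANNTTC in capitals and 11 bases on each side:
Hspa1a, chr17:34972242-34972271: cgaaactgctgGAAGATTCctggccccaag
Hspa1b, chr17:34959324-34959353: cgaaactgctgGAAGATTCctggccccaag
The 30 bases are the same in both. GAANNTTC, which reads the same on both strands, was found in 6.78% of all promoters and in 5 of 12 matched to the heat shock list, those of Dnaja1, Hspa1a, Hspa1b, Hspb1 and Hspe1.

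Slpi, a secreted inhibitor of serine proteases, rose in the sum of all CML plasma cells, but 1075 of its 1193 CML UMIs lay in the 20 IgM-led cells. In the IgA-led cells, the larger class, the ratio was -0.77 (-1.08 to -0.47). Over all plasma cells it was at 3236 CPM (712 UMIs) in WT and 8931 CPM (1193 UMIs) in CML, a log2 ratio of 1.46 (1.33 to 1.60), against -0.68 in the other kept cells. The libraries differed in the upper part of the cells: the median cell had 1828 CPM (WT) and 2103 CPM (CML), the upper quartile at 4087 and 7967 CPM, and the highest at 22299 and 126377 CPM. A single CML cell gave 24.6% of the UMIs. Slpi lies on chromosome 2 at 164354070 to 164389095 (minus strand).

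Other genes that rose included Selenop, a secreted selenium carrier, at 123 CPM (27 UMIs) and 561 CPM (75 UMIs), a ratio of 2.19 (1.54 to 2.89) beside -0.01 in the other kept cells. Ifrd1 rose from 95.4 to 382 CPM (fold of 4.00, log2 interval 1.24 to 2.81), though its log2 ratio was 0.75 among cells with at least 50% immunoglobulin. Car2, a carbonic anhydrase of erythroid cells, rose from 86.4 to 419 CPM, with 82.1% of its CML UMIs in 1 cell. Among the other genes that fell were Psmb1, a proteasome subunit, at 282 and 74.9 CPM, Il2rg, the common cytokine receptor chain, at 605 and 262 CPM (ratio -1.21), Hes1, a target of Notch, at 336 and 112 CPM, and Mgat1, an enzyme of N-glycans, at 505 and 165 CPM. Pclaf, a replication factor, was at 254 and 44.9 CPM, but at a ratio of 1.11 among cells with at least 50% immunoglobulin.

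Genes of the interferon response were low in count. Of 3 tested, Isg20 (264 and 120 CPM) and Ifi47 (227 and 67.4 CPM) fell, beside 7.22% of all genes. A single WT cell gave 44.0% of the Ifi47 UMIs. Ifi47 met the floors and 2-fold in only 7 of 16 alternatives, and its log2 ratio was 1.57 without the members that hold a pair of markers of another type. Of 15 immediate early genes tested, 0 rose or fell and the median was 0.22, against 0.96 in the other kept cells. Fos was at 5504 and 6461 CPM in plasma cells, a ratio of 0.23, and 1.21 in the other cells. Fosb was at 1536 and 1969 CPM, with ratios of 0.36 and 1.78.

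Xist, a non-coding RNA transcribed from the inactive X chromosome of females, had 374 UMIs (2800 CPM) in CML plasma cells and 0 in WT. With the count of 0 set to 3 over the group, Xist was 205-fold higher in CML. It was found in 38 of 43 CML and 0 of 95 WT plasma cells. The Y-linked genes Ddx3y, Eif2s3y, Kdm5d and Uty had 17, 11, 12 and 10 UMIs in WT, and 0, 0, 1 and 0 in CML. The other kept cells showed the same for Xist, with 1.59 CPM (WT) and 2389 CPM (CML). For every gene compared here, leukaemia and a possible difference in the sex of the mice cannot be told apart.

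Beside the plasma cells, 1962 genes were tested in the other kept cells, of which 17 (0.866%) were past 2-fold higher and 3 (0.153%) past 2-fold lower in CML, around a median of 0.01. The larger share in plasma cells comes with far fewer UMIs, and its cause was not tested. Of the genes past 2-fold in plasma cells, 4 higher and 1 lower were past it in the same direction in the other cells, namely Xist, Hspa1b, Hspa1a and Hsph1, and Hes1. Chst1, a sulphotransferase, was opposite, at -1.60 (-2.45 to -0.84) in plasma cells and 1.19 in the others, where its level was far lower: plasma cells were 325-fold over them in WT.

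**Figure D4:**
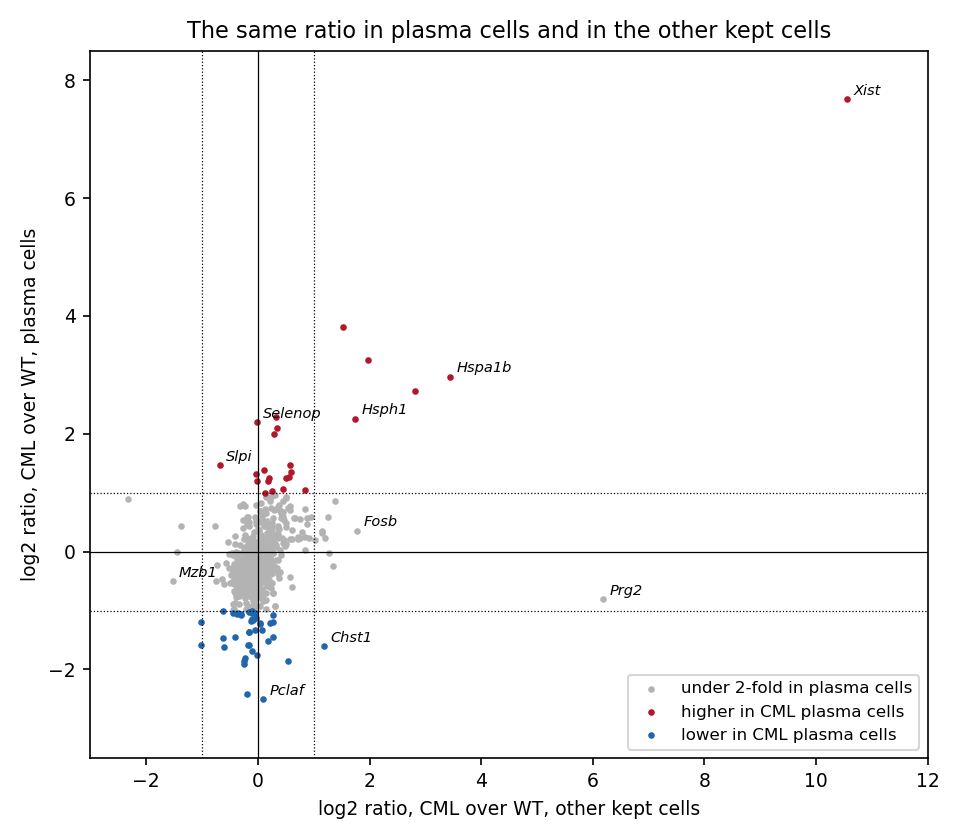
Each point is 1 of the 568 genes tested in plasma cells, with the log2 ratio of CML over WT in the other kept cells on the x axis and in plasma cells on the y axis; dotted lines mark 2-fold. Xist, Hspa1a, Hspa1b and Hsph1 are high on both axes, Slpi only on the y axis, and Prg2 only on the x axis.

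IgA-led and IgM-led cells differed in genes other than the heavy chain, a comparison that was added after the data had been seen. In WT, 334 genes were tested, of which 26 (7.78%) were 2-fold or more higher in IgA-led cells and 13 (3.89%) lower by as much. In CML, 218 were tested, with 19 (8.72%) higher and 14 (6.42%) lower. Of the 26, 17 had the same direction in CML and 10 were 2-fold there; over all 334 genes 56.9% were higher in IgA-led cells of CML and 8.68% 2-fold. Of the 13, 11 had the same direction and 4 were 2-fold, beside 5.09% of all. Cells with under 50% immunoglobulin were more common among the IgM-led, at 10 of 29 against 6 of 65 IgA-led cells in WT and 6 of 20 against 3 of 23 in CML. They held 32.4% and 22.7% of the UMIs outside immunoglobulin genes of their class in WT, and 58.7% and 31.2% in CML. Among cells with at least 50%, 22 genes were higher and 11 lower in IgA-led cells of WT, of 237 tested, and 16 and 6 in CML, of 112.

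Ccr10 was higher in IgA-led cells, at 375 CPM (53 UMIs) against 79.8 CPM (6 UMIs) in WT and at 148 CPM (11 UMIs) against 16.9 CPM (1 UMI) in CML. The log2 ratios were 2.23 (1.02 to 3.74) and 3.13 (0.35 to 8.56). Glipr1, a CAP-family protein, was at 1939 against 452 CPM in WT and 1776 against 50.6 CPM in CML, ratios of 2.10 (1.58 to 2.66) and 5.13 (3.55 to 7.43). Edem2, which trims glycans of misfolded proteins, was at 793 against 266 CPM and 740 against 203 CPM. Tnfrsf13b was at 602 against 239 CPM in WT (85 and 18 UMIs, a ratio of 1.33, 0.58 to 2.15), while in CML its 13 and 5 UMIs left the direction undecided (1.05, -0.53 to 2.89). Ccr10 and Tnfrsf13b missed the floor of 50 UMIs in CML. These genes were picked after their values were seen, and others did not show the same in CML. Pqlc3 was at a ratio of 2.12 in WT and -0.55 (-1.54 to 0.43) in CML, Hnrnpa0 at 1.70 and also -0.55, and Lman1, a cargo receptor of the secretory pathway, at 1.38 and 0.11 (-0.56 to 0.79). Among cells with at least 50% immunoglobulin the ratios of Glipr1 were 2.33 in WT and 4.12 in CML, and those of Edem2 1.67 and 2.74, the last from 42 and 3 UMIs.

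IgM-led cells had more Cd52, a short surface glycoprotein of lymphocytes, at 4415 against 871 CPM in WT and 3393 against 578 CPM in CML, ratios of IgA over IgM of -2.34 (-2.65 to -2.04) and -2.55 (-3.06 to -2.07). Slc3a2, a chain of amino acid transporters, was at 3803 against 1380 CPM and 5081 against 1520 CPM. Chst1 was at 1064 CPM (80 UMIs in 20 cells) against 35.4 CPM (5 UMIs in 2 cells) in WT, 30.1-fold higher, and in CML at 287 CPM (17 UMIs) against 0. Ly6c2 was at a ratio of -2.87 in WT and only -0.59 in CML.

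**Figure D5:**
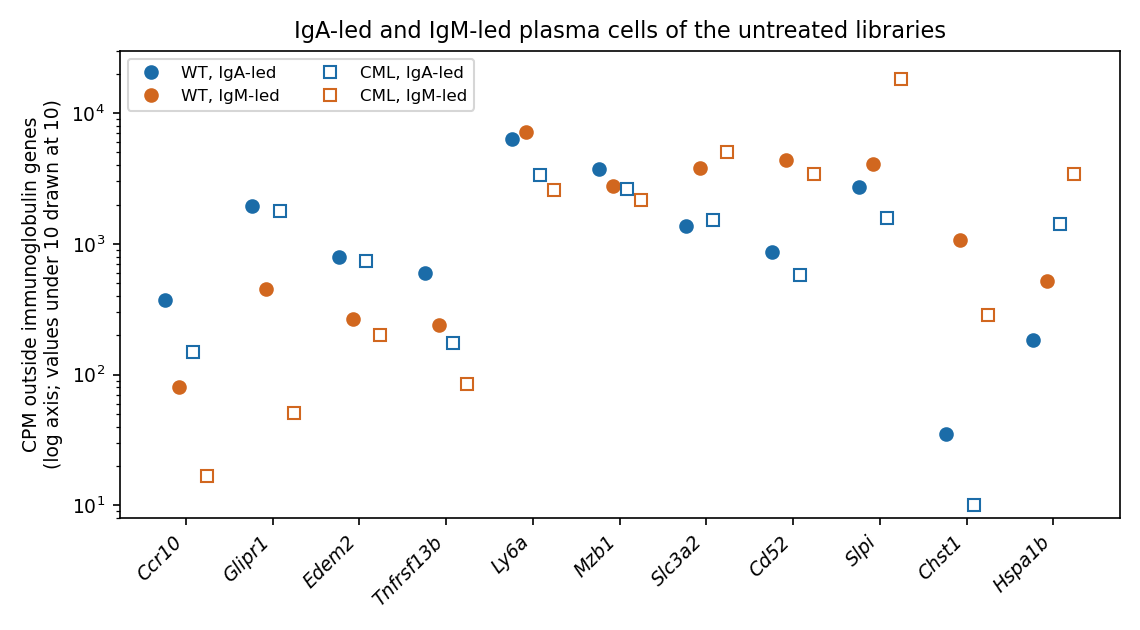
CPM of 11 genes in the summed IgA-led (blue) and IgM-led (orange) plasma cells of WT untreated (filled circles) and CML untreated (open squares), on a log axis. Glipr1 and Edem2 are higher in blue in both libraries, as are Ccr10 and Tnfrsf13b, which in CML rest on 12 and 18 UMIs, Cd52, Slc3a2 and Chst1 higher in orange, and Slpi is far highest in the IgM-led cells of CML.

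Within classes, the comparison of CML with WT kept its direction for Ly6a, with ratios of -0.91 (-1.12 to -0.71) in IgA-led and -1.47 (-1.74 to -1.21) in IgM-led cells. Hspa1b was at 2.94 and 2.73, Tnfrsf13b at -1.78 and -1.50, and Sdc1 at -1.19 and -1.79. Slpi split by class, at -0.77 (-1.08 to -0.47) in IgA-led and 2.15 (1.97 to 2.34) in IgM-led cells, with 18147 CPM in the IgM-led cells of CML against 4083 CPM in those of WT. It was counted in 18 of 20 of those CML cells, and the highest gave 27.3% of their UMIs. Ccr10 and Tnfrsf13b, both higher in IgA-led cells of WT, were lower in CML within the IgA-led cells too, at -1.34 (-2.43 to -0.39) and -1.78 (-2.75 to -0.93).

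The WT imatinib library had 6 plasma cells, too few to compare genes. Ighm led in 4 of them, Ighg2b in 2 and Igha in 0, which with 6 cells allows a share of up to 45.9%, and all were kappa. Jchain took 2.94% of immunoglobulin UMIs in the IgM-led cells. Slpi was at 25607 CPM (21787 to 29890) with a UMI in 5 of 6 cells, but of its 156 UMIs 1 cell gave 74 and another 57. Xbp1 was at 1970 CPM (12 UMIs), Ly6a at 1313 CPM (8 UMIs) and Mzb1 at 985 CPM (6 UMIs). Hspa1b and Ccr10 had 0 UMIs, which at this depth allows up to 605 CPM.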

How the data were processed

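The 4 deposited matrices hold a normalized signal per gene and cell, made by the authors; per the submitters' processing notes Partek 8.0, Bowtie 1.1.1 and GRCm38 (mm10) were used, without their roles, which are not given in the sources used here. The deposited signal of a cell comes in multiples of 1 step, by which it was divided; the recovered counts were whole for 100% of values (tolerance 0.02). Since headers are longer than the columns by 1 name, cells were taken by position.

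The members and the 22 gene lists were chosen with earlier results of these data known. Ratios use CPM over summed UMIs outside 80 immunoglobulin genes, with exact conditional binomial 95% intervals (scipy 1.17.1) and a floor of 3 counts for a count of 0. A gene was called at 2-fold where its higher level was 100 CPM and 50 UMIs or more. With 1 library per group no count test was run; edgeR 4.0.16 gave only TMM factors. Shares of cells have exact Clopper-Pearson intervals. Named genes were the markers, the 12 highest and 12 lowest called (ranked with 10 CPM added), the 6 largest differences from the other kept cells at each end, the 15 that led plasma cells, and up to 6 by ratio and 4 by level from each list. Gm and Rik genes, ribosomal and mitochondrially encoded genes were not named, nor, among the 12 at each end, genes with over 50% of UMIs in 1 cell. Genes of the comparison of IgA-led with IgM-led cells, and some others, were named after their values were seen. The ratio and the call rule were tested on simulated data. Each group is 1 library, so a difference may be technical.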

Additional observations from a re-analysis of the deposited data

How the results depend on the processing

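The share of plasma cells in each library, and the share led by Igha, stayed within their intervals under the alternatives run, except that without members holding a pair of markers of another cell type, B cells included, the share of plasma cells was 1.38% in WT untreated and 0.693% in CML untreated. The 24 higher and 41 lower genes depended on depth and scaling. The count of higher genes was 40 with a total of all UMIs, 2 with plasma cells thinned to 500 UMIs, 7 without members holding a pair of markers of another cell type, 157 with floors of 50 CPM and 20 UMIs, 6 with floors of 200 CPM and 100 UMIs, 8 without the top cell of each gene and 10 at an immunoglobulin share of 50%. The count of lower genes was 16, 3, 22, 257 and 9 under the first 5 of these, 66 with TMM, 21 at 50%, 21 without members holding a pair of markers of a type other than B cells, 25 centred on the median, and 11 with the level of 50 UMIs in CML as the floor of both libraries. Of genes lower in IgA-led than in IgM-led cells of CML, 6 were called at 50%, against 14. Thinning left 100 genes to test and the marker filter 172, which lowers the counts by construction. Elsewhere the cause was not tested. With the marker filter, 4 of the 7 higher and 4 of the 22 lower genes were among the 24 and 41. With B cell markers ignored, 13 of 21 higher and 14 of 21 lower genes were, and with thinning 2 of 2 and 1 of 3. Alternatives at 50%, with B cell markers ignored, centred on the median or with an equal floor, and the marker filter on the shares of cells, were chosen after seeing the data.

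Of the 24 named genes past 2-fold, 4 reversed under some alternative. Without members holding a pair of markers of another type the log2 ratio was 0.18 for Pclaf, 1.57 for Ifi47, 0.077 for Ehd4 and -1.02 for Hsph1; with B cell markers ignored it was 0.21 for Pclaf and -0.70 for Hsph1, and at an immunoglobulin share of 50% it was 1.11 for Pclaf and -0.59 for Hsph1. Slpi and Xist met the floors and 2-fold in all 16 alternatives and Hspa1b in 15. The log2 ratio of Hspa1b was 2.03 or more in each. The 5 genes that met the floors and 2-fold the same way in plasma cells and the other cells became 1 with thinning and 3 at 50%. Stem and progenitor markers in WT plasma cells were 115 CPM with thinning and 48.9 CPM at 50%, and 52.9 CPM in CML at 50%. No paired analysis was possible because each group has 1 library.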

Other observations

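Cell cycle genes were low in these cells. Mki67 had a UMI in 9.47% of WT and 4.65% of CML plasma cells, against 27.5% and 31.4% of the other kept cells; after thinning to 500 UMIs the shares were 2.30% and 2.44% against 5.41% and 4.55%. S phase genes summed to 1195 CPM in WT and 1063 CPM in CML plasma cells, against 3792 and 3759 CPM in the other cells, and G2 and M phase genes to 1050 and 1280 CPM against 3726 and 3584 CPM. None of the 18 S phase genes was tested, and of the G2 and M phase genes 1 was, Hmgb2 at 232 and 374 CPM, with 64.0% of its CML UMIs in 1 cell.

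Genes of metabolism in secreting cells (4 tested, median -0.20) had none past 2-fold. The proteasome and autophagy list had 1 of 8 lower, beside 7.22% of all genes, and a median of -0.28. The regulators of the unfolded protein response had 3 tested and none past 2-fold, with a median of -0.38. Chac1, a glutathione-degrading enzyme of that response, had 22 UMIs in WT and 45 in CML plasma cells, a log2 ratio of 1.75 (0.99 to 2.56) beside 2.12 in the other kept cells, and missed the floor of 50 UMIs.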
